A study of Danio rerio with 30 samples.

Results

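Eye tissue of zebrafish (Danio rerio) embryos collected at 56 hours post-fertilisation (hpf) was compared with tissue collected at 48 hpf, with the libraries of the optic fissure region and of the dorsal retina pooled. The comparison used 20 of the 30 libraries of the study, 10 from each time. The optic fissure is the gap on the ventral side of the developing eye cup that closes as its edges fuse. The study sampled the fissure region (OF) and, as the control region, the dorsal retina (DR), before fusion (32 hpf), during fusion (48 hpf) and after it (56 hpf), with 5 biological replicates in each of the 6 groups. Strain, genotype, sex, light regime and the number of embryos behind each dissection are not stated in the labels, and no treatment is named for any group. The OF and DR library with the same replicate number and time were averaged as log2(normalised count + 1), so that 5 pair means of 56 hpf stood against 5 pair means of 48 hpf. A pair mean does not depend on which of its libraries was labelled OF. A level given for a pair is this mean turned back to the scale of normalised counts, which are reads divided by a size factor of the library. Pair levels are listed in the order of replicates 1 to 5. Pairs of different times were treated as unlinked, also where they share a number.

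The 20 libraries held between 5.90 and 12.3 M reads in genes, with a median of 9.99 M. The retinal marker genes rx1, rx2, pax6a, pax6b and crx had reads in 10 of 10 libraries at both times. Markers of other cells were also present. The summed normalised count of 36 muscle genes ran from 189.8 to 6015 at 48 hpf and from 206.2 to 36220 at 56 hpf, where the 4 libraries of pairs 1 and 2 lay between 7367 and 36220 and no other library of that time exceeded 549.3. In the OF library of pair 5 of 48 hpf the rod opsin gene rho stood at 1.60 and in its DR partner at 8.18, while the other OF libraries of that time ranged from 704.3 to 22970. The DR library of pair 1 of 56 hpf had reads in 25740 genes, against 18938 to 21805 in the other libraries of 56 hpf. Pair 5 of 48 hpf and pair 1 of 56 hpf, named the doubted pairs below, were therefore left out in an added alternative. It is given where it ends a call and for some list medians, and it is not a full measure of quality. Pair 2 of 56 hpf, also high in muscle genes, was kept in it. Summed crystallin counts at 56 hpf were 4145 in the DR library of pair 1 and 3426 in the OF library of pair 2, and at most 524.8 in the others.

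The vertebrate circadian clock is a feedback loop of transcription. Clock and Bmal proteins switch on period and cryptochrome genes, whose products repress Clock and Bmal. Nuclear receptors of the Rev-erb family (nr1d genes) repress bmal genes, Ror receptors activate them, and PAR bZIP factors such as Tef and Dbp pass the rhythm on to other genes. Cells of many zebrafish tissues hold a clock that light can set directly. The retina over these hours is producing its last classes of neurons, and photoreceptors begin to build outer segments with opsins and the other proteins of phototransduction.

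Clock genes made up most of what passed the main test between 48 and 56 hpf. Of 16838 genes tested, 7 were called at an adjusted p under 0.05, which is 0.0416% (limma-trend, Benjamini-Hochberg adjustment, two-sided). Higher at 56 hpf were 2 genes (0.0119%), the cryptochrome gene cry1bb and the retinol dehydrogenase gene rdh5. Lower were 5 genes (0.0297%): per1b, per3, ciarta, nr1d2b and tefa. Of the 48 tested genes in the 3 clock lists, 6 were called, 1 higher and 5 lower. An alternative test, DESeq2 on recovered reads, called 30 genes, most of them outside the clock lists. Its calls held 4 period and cryptochrome genes, 2 of the list of Bmal, Clock, Rev-erb and Ror genes and 3 of clock output. The median log2 difference over all tested genes was 0.05, and 1409 genes had an unadjusted p under 0.05.

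**Figure D1:**
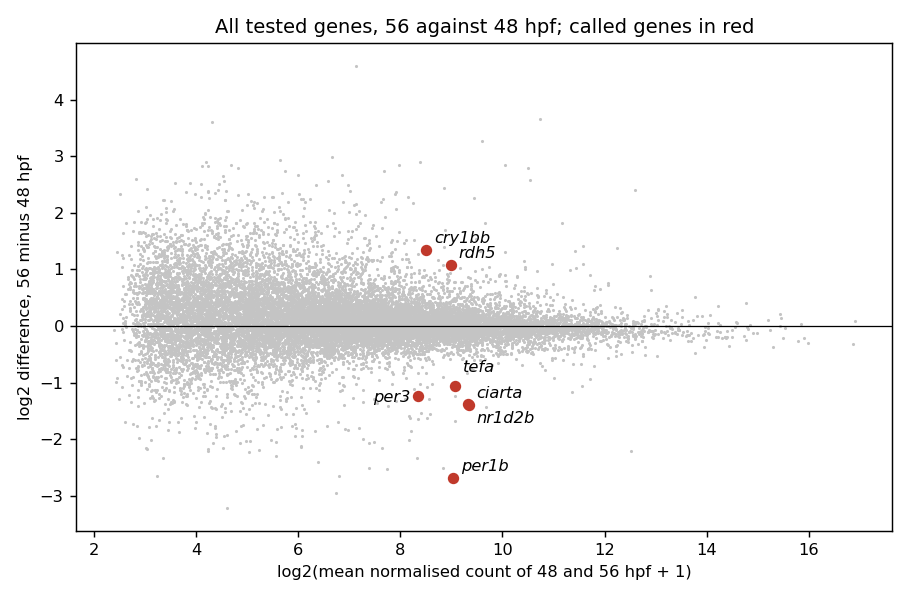
Log2 difference between 56 and 48 hpf (vertical axis) against the log2 mean normalised count (horizontal axis) for all 16838 tested genes, with the 7 called genes in red. The called genes lie between -2.68 and 1.34, and some genes with larger differences, in grey, did not pass the test.

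The period genes encode repressors of the clock loop. The gene per1b (ENSDARG00000012499) showed the largest difference among the called genes. Its pair levels at 48 hpf were 884.4, 621.7, 890.6, 830.8 and 1254, and at 56 hpf 80.3, 158.9, 232.7, 133.2 and 116.1. The lowest pair of 48 hpf thus stood well above the highest pair of 56 hpf. The gene fell by 2.68 on the log2 scale (SE 0.257, limma adjusted p = 0.00131), a level 6.40-fold lower at 56 hpf. Its paralog per3 (ENSDARG00000010519) read 519.3, 383.9, 484.2, 402.7 and 492.0 at 48 hpf, and 152.8, 200, 216.3, 176.4 and 221.0 at 56 hpf. Pairs of the 2 times did not overlap, and per3 fell by 1.24 (SE 0.145, limma adjusted p = 0.00594). It was not called without both doubted pairs (limma adjusted p = 0.0624). The other period genes did not pass the test. The log2 difference of per2, a period gene known for its induction by light, was -0.52 (SE 0.196) and that of per1a, with mean normalised counts of 16.3 and 3.51, was -1.85 (SE 0.896).

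Cryptochromes are flavoproteins, several of which repress Clock and Bmal. The level of cry1bb (ENSDARG00000091131) was 213.0, 211.4, 214.3, 194.2 and 176.6 in the pairs of 48 hpf, and 402.6, 468.7, 568.6, 594.0 and 547.5 in those of 56 hpf. Every pair of 56 hpf was above every pair of 48 hpf. The gene rose by 1.34 (SE 0.135, limma adjusted p = 0.00153), a 2.53-fold higher level. Its paralog cry1ba also had non-overlapping pairs, from 877.3 to 1872 at 48 hpf and from 1956 to 2306 at 56 hpf, but its difference of 0.64 (SE 0.187) did not pass the test (limma adjusted p = 0.596). The photolyase-like gene cry-dash had the opposite order, 57.3 to 85.1 against 30.1 to 50.1, with a difference of -0.97 (SE 0.233) and the same adjusted p of 0.596 in limma, and DESeq2 called it (adjusted p = 0.0341). The remaining cryptochrome genes cry1aa, cry1ab, cry2, cry4 and cry5 had log2 differences between -0.50 and 0.25, none of them called. The 12 genes of the period and cryptochrome list as a whole had 3 positive and 9 negative differences and a median of -0.45. Over all 48 tested genes of the 3 clock lists, 26 differences were positive and 22 negative, with a median of 0.12.

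Among the nuclear receptors of the loop, nr1d2b (ENSDARG00000009594), a Rev-erb gene, was called. Its pairs stood at 1115, 926.4, 971.8, 689.1 and 902.5 at 48 hpf, and at 401.8, 488.1, 326.3, 294.7 and 268.0 at 56 hpf. The groups did not overlap, and the gene fell by 1.39 (SE 0.176, limma adjusted p = 0.00958). Without both doubted pairs its adjusted p in limma was 0.0835. The Rev-erb gene nr1d1 had a larger but less certain difference. Its levels were low, 39.7, 42.1, 34.0, 37.0 and 37.4 at 48 hpf and 13.01, 0, 1.99, 2.65 and 7.19 at 56 hpf. Its difference was -3.23 (SE 0.62) with an adjusted p of 0.323 in limma, and it passed under 3 of the alternatives, among them DESeq2 on recovered reads. For the Rev-erb gene nr1d2a the difference of -0.45 (SE 0.255) did not pass. Differences of nr1d4a and nr1d4b, also Rev-erb genes, were positive under 25 of 25 alternatives. They ran from 0.29 to 1.75 and from 0.45 to 1.01, without a call. Genes of the activating arm showed small differences. Those of the Bmal genes arntl1a, arntl1b and arntl2 were 0.19, 0.13 and -0.15, and those of clocka and clockb 0.49 and 0.12. Among the Ror genes, rorca had non-overlapping pairs, 17.7 to 29.2 at 48 hpf and 40.5 to 48.5 at 56 hpf, and a difference of 0.77 (SE 0.252) that was not called.

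The clock output list holds PAR bZIP factors, their Nfil3 competitors, the bhlhe repressors, the melatonin enzymes and ciart genes. Of its 20 tested members 2 were called, both lower at 56 hpf. The gene ciarta (ENSDARG00000058094), whose mouse counterpart represses Clock and Bmal, stood at 945.2, 867.3, 1017, 815.3 and 1014 at 48 hpf, and at 299.4, 434.8, 356.8, 350.5 and 326.3 at 56 hpf. It fell by 1.40 (SE 0.122) and had the smallest adjusted p of the comparison (limma, 8.88e-04). With the 32 hpf pairs in the fit its call was lost (limma adjusted p = 0.118), as were those of nr1d2b (0.149), tefa (0.757) and rdh5 (1.0). The PAR bZIP gene tefa (ENSDARG00000039117) stood at 755.7, 827.9, 563.9, 653.5 and 741.5 at 48 hpf, and at 348.3, 456.4, 278.9, 303.2 and 315.0 at 56 hpf. The pairs did not overlap for either gene. The gene tefa fell by 1.06 (SE 0.153, limma adjusted p = 0.0284), and it was the least stable call. It did not pass without any 1 of 8 of the 10 pairs, the exceptions being pair 3 of 48 hpf and pair 2 of 56 hpf, with adjusted p in limma of 0.0758 to 0.138, nor without both doubted pairs (0.259).

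A second PAR bZIP gene, dbpb, missed the threshold. Its pairs stood at 50.5, 63.8, 79.2, 64.2 and 80.5 at 48 hpf and at 17.2, 10.1, 21.0, 27.0 and 9.45 at 56 hpf. These groups did not overlap, and the difference was -2.02 (SE 0.334, limma adjusted p = 0.101). It passed in the fit of 20 libraries with the pair as a random effect (adjusted p = 0.0227) and with DESeq2 (adjusted p = 6.16e-05). The repressor gene bhlhe40 also had non-overlapping pairs, 309.7 to 502.2 against 201.9 to 306.3, with a difference of -0.58 (SE 0.163) that was not called. The melatonin enzyme gene aanat2 had overlapping pairs, 180.8 to 664.0 at 48 hpf and 405.7 to 918.8 at 56 hpf. Differences of the Nfil3 genes nfil3 and nfil3-2 were -0.01 and 0.04. Those of nfil3-5 and nfil3-6 were positive under 26 of 26 alternatives, at 0.11 to 0.26 and 0.40 to 0.97, without a call. Of the 20 tested members of the output list, 12 had a positive and 8 a negative difference. The median of the list was 0.12, and its sign turned under 4 of 26 alternatives. Over the 3 clock lists, 3 of 48 tested genes had every pair of 56 hpf above every pair of 48 hpf and 9 had every pair below. The same held for 0.73% and 0.481% of all tested genes, respectively.

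**Figure D2:**
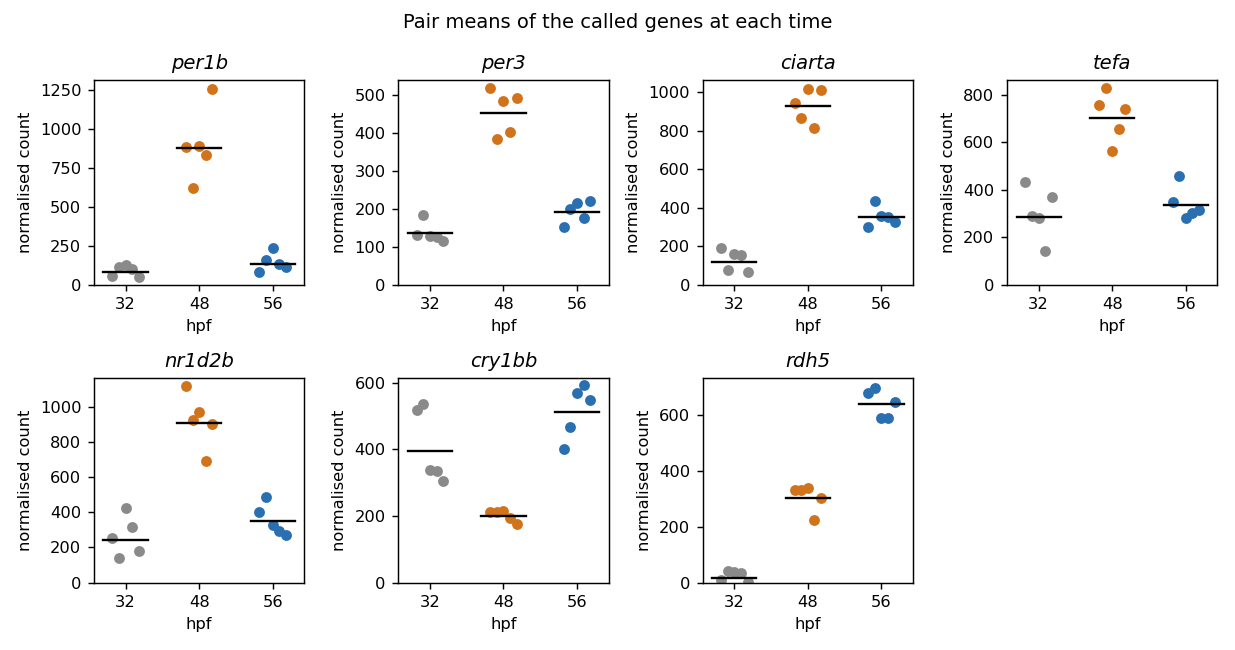
Pair levels (normalised counts, vertical axis from 0) of the 7 called genes at 32, 48 and 56 hpf. Each point is 1 pair of OF and DR libraries and each line the mean of 5 pairs on the log2 scale. The pairs of 48 and 56 hpf do not overlap for any of the 7 genes.

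The times 48 and 56 hpf lie 8 h apart and 32 and 56 hpf lie 24 h apart. Developmental stage differs in the comparison and hour of day may differ too, and they cannot be told apart within it. The pairs of 32 hpf were not part of the test, and their levels are given as a description. Pair 1 of 32 hpf stood apart, with reads in 11777 (DR) and 13854 (OF) genes, against at least 17462 in the other libraries of 32 hpf. Ribosomal protein genes took 19.7% and 18.8% of its normalised counts, and at most 11.0% in the others. That pair is part of the ranges and shares given here and of the fit with the 32 hpf pairs. Pair levels of per1b at 32 hpf were 51.15 to 128.8, overlapping the range of 56 hpf and below all pairs of 48 hpf. Those of per3 were 115.9 to 183.9, of ciarta 67.3 to 192.3 and of nr1d2b 137.1 to 421.5, likewise below all pairs of 48 hpf. The pairs of tefa at 32 hpf, 142.3 to 431.5, overlapped those of 56 hpf and lay below those of 48 hpf. For cry1bb they were 306.6 to 537.4, above all pairs of 48 hpf. Of all tested genes, 21.3% had every pair of 32 hpf below every pair of 48 hpf and 5.57% had every pair above, so a level below 48 hpf at 32 hpf was common. For rdh5 the levels at 32 hpf were 3.30 to 40.5, below both later times.

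The seventh called gene, rdh5 (ENSDARG00000008306), encodes a retinol dehydrogenase of the visual cycle, which in mammals makes 11-cis-retinal in the retinal pigment epithelium (RPE). Its pair levels were 331.1, 332.4, 339.1, 226.0 and 303.5 at 48 hpf, and 681.9, 699.8, 589.4, 589.6 and 648.1 at 56 hpf. Each pair of 56 hpf was thus above the highest of 48 hpf. It rose by 1.08 (SE 0.132, limma adjusted p = 0.00805), a 2.11-fold higher level. Without both doubted pairs rdh5 was not called (limma adjusted p = 0.101). Among other genes of the pigment epithelium, the melanosome gene pmelb had non-overlapping pairs, 2393 to 3827 against 4196 to 6859, and a difference of 0.72 (SE 0.16) that did not pass (limma adjusted p = 0.596) except with DESeq2 (adjusted p = 0.0385). The isomerase gene rpe65a differed by 0.88 (SE 0.322) and the melanin enzyme gene dct by 0.30 (SE 0.111), neither of them called.

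The gene rdh5 is a member of the RPE and melanin list. Of its 29 tested members 20 had a positive difference, rdh5 was the 1 called by limma and the median was 0.18, against 0.05 over all tested genes. The median was 0.02 in the OF libraries alone, 0.104 without pair 5 of 48 hpf, 0.111 without pair 1 of 56 hpf and 0.0466 without both. The summed normalised count of the list ran from 32930 to 57090 in the libraries of 48 hpf and from 49430 to 69950 in those of 56 hpf. The defining markers dct, tyrp1b and pmela had reads in every library of both times. The part of this list in the difference of rdh5 was not tested. In bulk tissue, a change in the number of cells of a type and a change in RNA per cell cannot be told apart.

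The called genes had differences of the same sign in the OF and in the DR libraries, which together make up the pair means that chose them. These values, unlike the pair means, depend on the region labels. In pair 5 of 48 hpf rho was low in both libraries, so rho cannot tell whether the labels of that pair were exchanged. In the OF libraries alone per1b fell by 2.90 (SE 0.318, limma adjusted p = 0.00492), and in the DR libraries alone it fell by 2.45 (SE 0.247, limma adjusted p = 0.00142). For ciarta the changes were -1.41 (SE 0.127) and -1.39 (SE 0.168), both called. The gene nr1d2b also passed in each region alone, with changes of -1.51 (SE 0.217) and -1.27 (SE 0.183). The genes per3 and cry1bb were called in OF, at -1.35 (SE 0.174) and 1.42 (SE 0.188). In DR, at -1.13 (SE 0.174) and 1.26 (SE 0.201), they narrowly missed the threshold (limma adjusted p = 0.0547 and 0.0631). The genes tefa and rdh5 were called in neither region alone. Within each labelled region, no library of 48 hpf overlapped with one of 56 hpf for any of the 7 genes, which were chosen by the pooled test on these same libraries. Over all tested genes, every library of 56 hpf lay above every one of 48 hpf for 0.76% in OF and 0.499% in DR, and below for 0.416% and 0.368%.

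**Figure D3:**
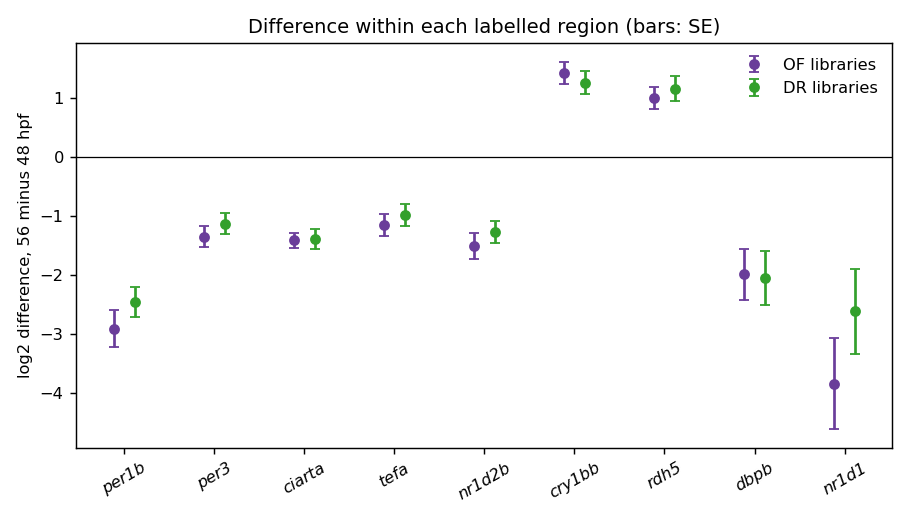
Log2 difference between 56 and 48 hpf within the OF libraries (purple) and the DR libraries (green) for the 7 called genes and for dbpb and nr1d1. Points are fitted differences of 5 against 5 libraries and bars are standard errors. The 2 regions give the same sign for each of these genes.

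The difference between the regions was tested directly. Taking OF minus DR within each pair, the change from 48 to 56 hpf differed between regions for 0 of 16838 genes (0.0%, limma-trend), with 646 at an unadjusted p under 0.05. The edgeR quasi-likelihood test on the 20 libraries also called 0, with 414 at an unadjusted p under 0.05. Without pair 5 of 48 hpf limma-trend called 0 and 670 had an unadjusted p under 0.05. Among the 7 called genes the smallest unadjusted interaction p was that of per1b, 0.128, and all 7 had an adjusted p of 0.9992. Without pair 1 of 48 hpf 1 gene was called, nfe2, a gene with mean normalised counts of 7.83 at 48 hpf and 12.3 at 56 hpf, named here because it was the only one. The gene rdh5 stood higher, within each time, in every library labelled OF than in every one labelled DR, which was not tested. Its OF libraries ranged from 348.7 to 591.7 at 48 hpf and from 718.4 to 1205 at 56 hpf, and its DR libraries from 146.3 to 283.9 and from 377.5 to 587.5. This order rests on the region labels, those of the doubted pair 5 of 48 hpf included. The share of all tested genes with such an order was not computed.

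Most genes of photoreceptor function had positive differences, but none passed the test. List counts here and below cover the members that passed the filter on low counts. These were 108 of 127 for the photoreceptor lists, 53 of 62 for vesicle release and 54 of 68 for receptors. They were 57 of 58 for replication, 58 of 60 for mitosis, 44 of 49 for Notch and 43 of 60 for collagen and matrix. A smaller share passed for potassium channels (34 of 64), muscle (23 of 36) and lens crystallins (4 of 49). Of 108 tested genes in the lists of phototransduction, outer segments and opsins, 102 had a positive difference, 6 a negative one and 0 were called. An unadjusted p under 0.05 was reached by 36 of them, and edgeR and DESeq2 also called 0. Over all tested genes 9642 differences were positive and 7196 negative. Members of a list share the same pairs, so their signs are not independent observations. The median log2 difference of the 108 genes was 1.01, against 0.05 over all tested genes and 0.514 without both doubted pairs. Non-overlapping pairs, all above, were found for 5 of the 108 (4.63%), against 0.73% of all tested genes. The rod arrestin gene saga was one of these, with pairs of 17.2, 69.3, 65.5, 5.999 and 3.99 at 48 hpf and 386.3, 239.8, 82.8, 91.3 and 77.0 at 56 hpf. Its difference was 2.84 (SE 0.761, limma adjusted p = 0.596). The red cone opsin gene opn1lw1 stood at 4.14, 2.18, 2.60, 0 and 0 at 48 hpf and at 20.6, 14.9, 8.22, 7.59 and 7.07 at 56 hpf, a difference of 2.37 (SE 0.646) between low levels. It could not have passed the filter on low counts through the libraries of 48 hpf alone. A low gene could pass through the libraries of 56 hpf, where it was higher, so such members tilt the list counts toward positive differences. The melanopsin gene opn4a, the exchanger gene slc24a4a and the ciliary gene cep290 were the other three.

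The visual opsins varied widely within each time. In the OF libraries rho stood at 5943, 6862, 22970, 704.3 and 1.60 at 48 hpf and at 26790, 28660, 13190, 11180 and 6781 at 56 hpf. In the DR libraries it was between 0 and 188.1 at 48 hpf and between 0 and 412.5 at 56 hpf, far below most OF libraries. Its pooled difference of 2.41 had an SE of 1.52 and was not called (limma adjusted p = 0.669). The second red cone opsin gene, opn1lw2, had pairs of 84.5, 341.5, 537.8, 9.95 and 1.91 at 48 hpf and 3396, 3986, 142.7, 450.7 and 188.2 at 56 hpf. Differences of the other cone opsins were 3.26 (SE 1.38) for opn1sw1, 1.46 (SE 0.712) for opn1sw2, 2.06 (SE 0.949) for opn1mw1 and 2.2 (SE 1.00) for opn1mw2, none of them called. The rod transducin gene gnat1 and the cone transducin gene gnat2 differed by 2.44 (SE 0.839) and 2.56 (SE 0.894). The visual cycle list had 33 tested genes, 26 of them with a positive difference, and rdh5 was the one called. Its median of 0.52 was 0.325 without pair 4 of 48 hpf. Transcription factors of photoreceptor fate differed little, with a median of 0.15 over 28 genes, which was 0.0736 without pair 5 of 48 hpf and 0.241 without pair 3 of it.

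Lists of synapse genes had positive medians, while lists of neuron classes varied. All 53 tested genes of synaptic vesicle release had a positive difference, with a median of 0.83 and 0 calls. Non-overlapping pairs, all above, were found for 3 of them (5.66%), against 0.73% of all tested genes. One was synj1, which encodes a phosphatase of vesicle recycling, at 182.9, 195.2, 216.8, 133.1 and 168.2 at 48 hpf and 341.4, 364.6, 245.5, 255.9 and 223.5 at 56 hpf. Its difference was 0.66 (SE 0.182, limma adjusted p = 0.596). The others were rims1a, of the release site, and the synapsin gene syn2a, at 0.78 (SE 0.248) and 1.02 (SE 0.328). Of 54 receptor genes for glutamate, GABA and glycine, 52 had a positive difference, with a median of 0.92 and 0 calls. The glycine receptor gene glrba differed by 2.56 (SE 0.785), between pairs of 0 to 24.6 and of 24.7 to 44.4. Bipolar cell genes had a median of 0.57 (24 of 29 positive), potassium channel genes of 0.53 (28 of 34) and glycolysis genes of 0.49 (29 of 32). Retinal ganglion cell genes had a median of 0.14 (25 of 35 positive), amacrine and horizontal cell genes of 0.28 (30 of 37) and proneural genes of -0.09, with 19 of 30 negative. None of these lists held a gene called by limma, edgeR or DESeq2. Several medians moved by over 1.5 times without single pairs. The vesicle median was 0.545 without pair 4 of 48 hpf and 0.463 without both doubted pairs. Bipolar genes stood at 0.37 without pair 4 of 48 hpf, at 0.313 without pair 5 of it and at 0.202 without both doubted pairs. Potassium channels stood at 0.284 without pair 4 of 48 hpf, at 0.317 without pair 5 of it and at 0.3 without both doubted pairs. The amacrine and horizontal median was 0.129 without pair 5 of 48 hpf and 0.0902 without both doubted pairs. The receptor and glycolysis medians without both doubted pairs were 0.538 and 0.322, and that of proneural genes was -0.0458 without pair 1 of 48 hpf and -0.149 without pair 5 of 56 hpf.

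Cell cycle genes had the opposite sign, also without a call. All 57 tested DNA replication genes and all 58 tested mitosis genes had a negative difference, with medians of -0.38 and -0.36. Over all 16838 tested genes 7196 differences were negative. The mitosis median was -0.193 without pair 1 of 56 hpf, and without both doubted pairs the medians were -0.124 for replication and -0.16 for mitosis. An unadjusted p under 0.05 was reached by 10 and 9 of these genes, and edgeR and DESeq2 called 0. The mitotic kinase gene aurka had pairs of 1040, 989.0, 1120, 1197 and 1122 at 48 hpf and 569.7, 757.1, 978.9, 927.2 and 1026 at 56 hpf. These groups overlapped, and its difference was -0.39 (SE 0.153, limma adjusted p = 0.596). Notch signalling, which keeps retinal cells in the progenitor state, had 44 tested genes, of which 35 were negative, with a median of -0.28 and 0 calls by limma and edgeR. For 4 of them (9.09%) every pair of 56 hpf lay below every pair of 48 hpf, against 0.481% of all tested genes. Among these the hairy-related gene her8a had pairs of 884.9, 742.7, 826.6, 1193 and 637.1 against 366.5, 494.4, 550.1, 475.5 and 597.1, and a difference of -0.77 (SE 0.175), which DESeq2 alone called (adjusted p = 0.0452). The feedback inhibitor gene nrarpb and the coactivator gene maml1 differed by -0.56 (SE 0.146) and -0.86 (SE 0.242). The 83 ribosomal protein genes had a median of -0.12 (0.00184 in the OF libraries alone), with 81 negative.

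**Figure D4:**
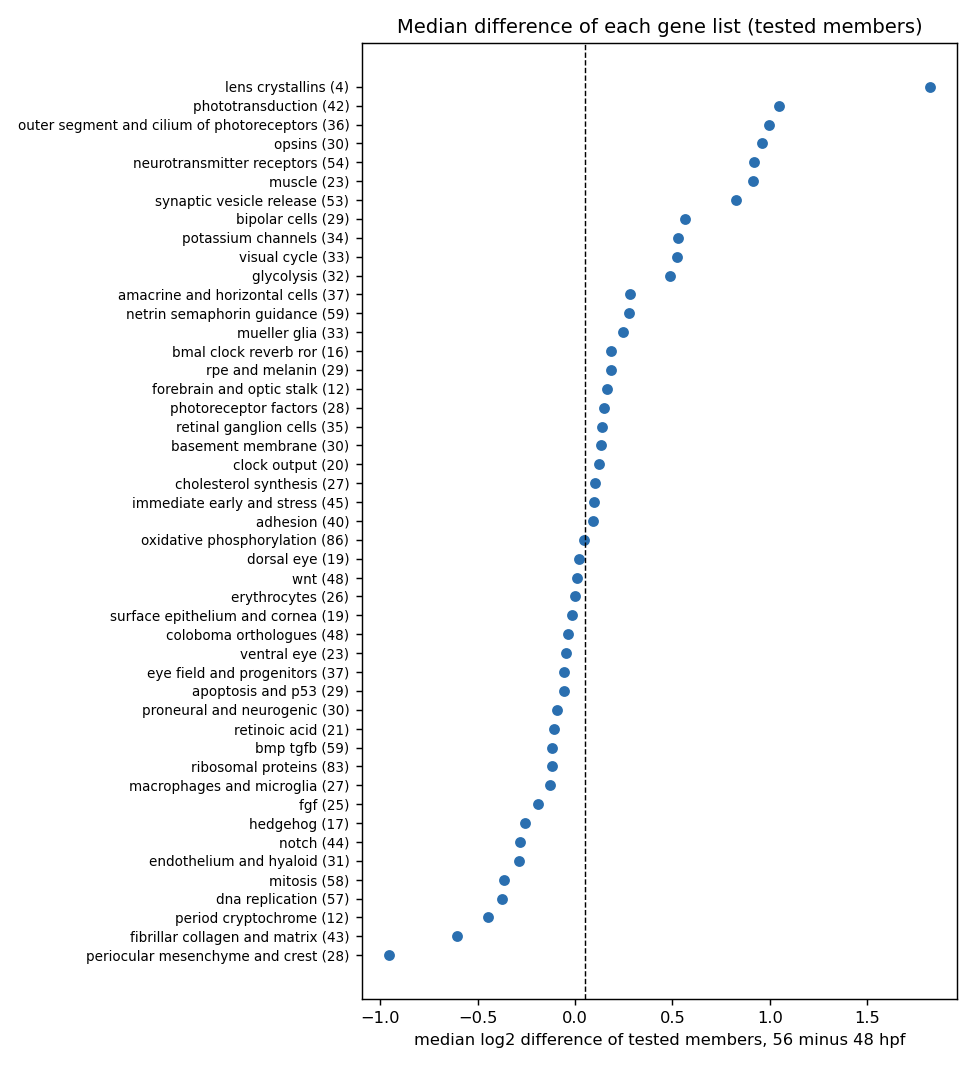
Median log2 difference between 56 and 48 hpf (horizontal axis) of the tested members of each of 47 gene lists, with the number tested in brackets. The dashed line is the median of all tested genes, 0.05. Lens crystallins, with 4 tested members, and phototransduction, outer segment, opsin and receptor lists lie to the right. The muscle list, with a median of 0.91 over 23 tested genes, lies beside the receptor list. Periocular mesenchyme and fibrillar collagen lists lie to the left.

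Single pairs stood apart in these lists. The mean log2 level of the phototransduction genes was 5.28, 5.52, 6.22, 3.83 and 3.58 in the pairs of 48 hpf and 7.45, 6.60, 5.61, 5.56 and 5.21 in those of 56 hpf. Pairs 4 and 5 of 48 hpf were the low ones and pairs 1 and 2 of 56 hpf the high ones, while pairs 1 to 3 of 48 hpf overlapped with pairs 3 to 5 of 56 hpf. The synaptic vesicle genes had the same pairs at the extremes, with 5.54 and 5.84 in pairs 4 and 5 of 48 hpf and 8.11 and 7.71 in pairs 1 and 2 of 56 hpf. For mitosis genes the mean was 9.68, 9.62, 9.76, 10.11 and 10.02 at 48 hpf and 8.84, 9.15, 9.85, 9.74 and 9.90 at 56 hpf. Here only pairs 1 and 2 of 56 hpf lay below every pair of 48 hpf. Those pairs were also the ones with high muscle levels, 7.84 and 7.75 against 2.07 to 3.41 in the other pairs of 56 hpf. The part of muscle tissue in the list differences was not tested. The first principal component of the 10 pairs took 30.5% of the variance, with pairs 1 and 2 of 56 hpf at one end and pairs 4 and 5 of 48 hpf at the other.

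**Figure D5:**
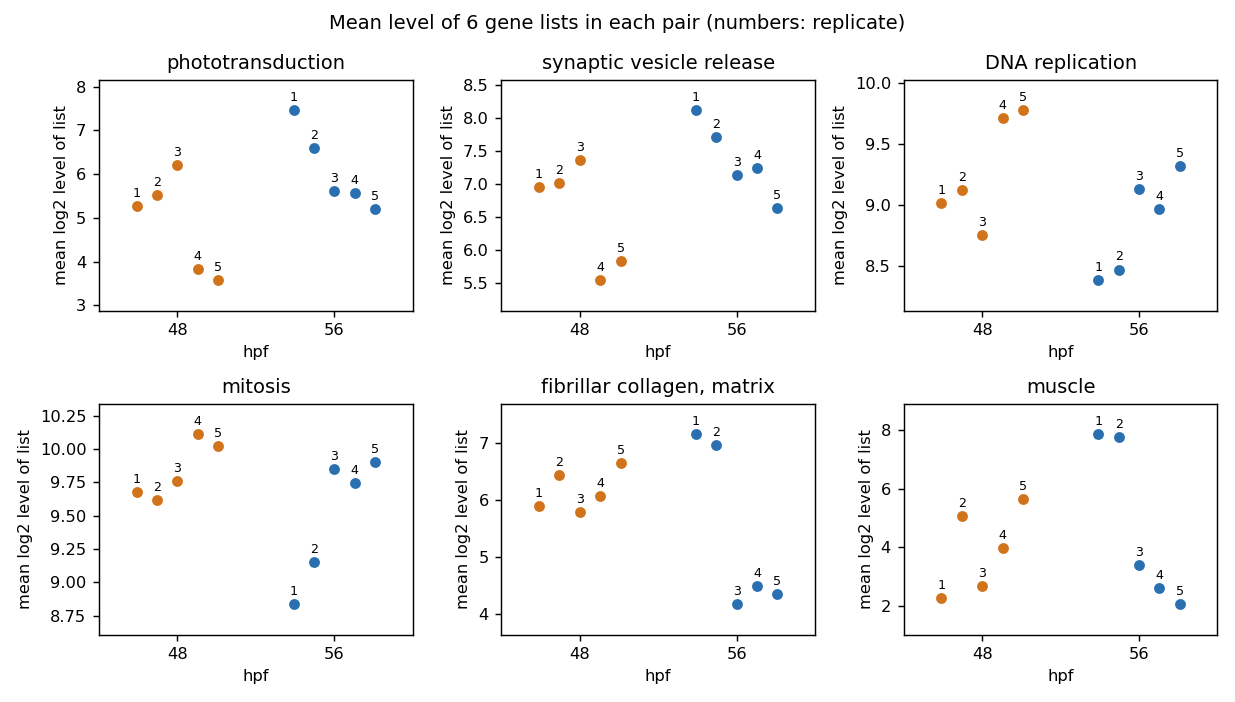
Mean log2 level (vertical axis) of the tested members of 6 gene lists in each pair at 48 and 56 hpf, with the replicate number at each point. In the phototransduction list pairs 4 and 5 of 48 hpf are lowest and pairs 1 and 2 of 56 hpf highest. In the muscle list pairs 1 and 2 of 56 hpf stand at 7.84 and 7.75.

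Genes of fibrillar collagen and matrix and of periocular mesenchyme, the tissue around the eye cup, stood low in part of the pairs of 56 hpf. Of 43 collagen and matrix genes 34 had a negative difference, with a median of -0.60 and 0 calls. Their mean log2 level was between 5.80 and 6.65 in the pairs of 48 hpf. At 56 hpf it was 7.15 and 6.96 in pairs 1 and 2 and 4.18, 4.49 and 4.36 in pairs 3, 4 and 5, so that the pairs of 56 hpf lay on both sides of those of 48 hpf. The proteoglycan gene lum followed this split, with 92.0, 228.1, 3.15, 1.66 and 1.16 at 56 hpf against 46.8 to 216.2 at 48 hpf. The collagen and matrix median was -0.39, -0.336 and -0.317 without pair 3, 4 or 5 of 56 hpf. The 28 mesenchyme and neural crest genes had 25 negative differences, a median of -0.95 and 0 calls by limma, edgeR or DESeq2. Their mean log2 level at 56 hpf was 6.97 and 6.68 in pairs 1 and 2 and 4.32, 4.26 and 4.66 in pairs 3, 4 and 5, against 5.84 to 6.90 at 48 hpf. The median was -0.54 without pair 3 of 56 hpf and -1.41 without pair 1 of 56 hpf. The summed normalised count of all 33 listed mesenchyme and crest genes, set mostly by those with high counts, changed less. It ran from 4976 to 9167 in the libraries of 48 hpf (median 8278) and from 5820 to 10640 in those of 56 hpf (median 7549).

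Lists tied to the axes of the eye and to fissure closure had medians close to that of all tested genes. The 23 tested genes of the ventral eye had 10 positive and 13 negative differences and a median of -0.05. The 19 genes of the dorsal eye had 10 positive and 9 negative ones and a median of 0.02. Orthologues of genes linked to coloboma, the failure of the fissure to close, numbered 48 tested, 23 positive and 25 negative, with a median of -0.04. None of these lists held a called gene. Pairs did not overlap for bmp4, a dorsal signal gene, and for zic2a, at differences of -0.36 and -0.39. Of all tested genes, 0.481% had every pair of 56 hpf below every pair of 48 hpf. These medians changed sign under some of the 26 alternatives, 5 for the ventral list, 10 for the dorsal list and 3 for the coloboma list.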

How the data were processed

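The deposited values are a signal: reads per gene, for 27731 genes and 30 libraries, divided by a size factor. Tools named, per the submitters' processing notes, are HTSeq, STAR 2.4.0, DESeq2, Picard and Trim Galore, and the build is GRCz10. Per the labels' protocols, RNA came from a kit for fixed tissue and libraries from a low-input method. The strand setting is not given in the sources used, so reads of genes that overlap on opposite strands may be misassigned. The handling of reads that match several close paralogs (many clock genes here) was not checked. Reads were recovered from the steps of the values: 100.0% were whole to 0.01 reads. The step of 1 library, DR replicate 3 of 48 hpf, was near 1.

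Tested genes reached 10 normalised counts in 5 or more of the 20 libraries. The test was limma-trend (limma 3.58.1, R 4.3.3) on log2(value + 1) pair means, which understates changes of low genes. Calls were made at a Benjamini-Hochberg adjusted p under 0.05, adjusted over all tested genes. The interaction test used OF minus DR within pairs. The alternatives were other pseudocounts, filters and scalings, array weights, single regions, other fits, edgeR 4.0.16, DESeq2 1.42.0 and leaving out pairs. The naming rule took in called genes, all tested clock genes and visual opsins. It added up to 6 members of each of 16 described lists by smallest unadjusted p. Not every gene so chosen, clock genes included, appears in the text. Others (bmp4 and nfe2 among them) were named after their values were seen. The members and the 47 gene lists were chosen with earlier results of these data known. Within a time, same-numbered OF and DR libraries deviated together (correlations 0.335 to 0.540, n = 10 pairs). P-values set each difference against the spread between these samples, and the number of embryos behind each sample is not stated. Promoter and protein sequences were not used here.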

Additional observations from a re-analysis of the deposited data

Results flagged for a closer look

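In each group of 5 pairs, the gap between the highest or lowest pair and its neighbour was set against the range of the group, for 216 groups of the named genes. A gap of more than 0.71 of the range was found in 5 groups, and chance gives such a gap in about 1 in 20 groups. In rdh5, pair 4 of 48 hpf stood at 226.0, below the others at 303.5 to 339.1. In cry1ba, pair 5 of 56 hpf stood at 1956, below the others at 2229 to 2306. In clocka, pair 5 of 56 hpf stood at 56.4 and the others at 114.6 to 150.5. In aanat1, a melatonin enzyme gene, pair 5 of 56 hpf stood at 2.31 and the others at 13.5 to 23.7. In nfil3-2, pair 2 of 56 hpf stood at 250.2 and the others at 347.9 to 396.4. Of the 5, only rdh5 was a called gene, and its low pair lay on the side away from 56 hpf.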

How the results depend on the processing

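The 7 calls stayed at 7 to 9 under the other pseudocounts, filters, scalings, array weights, edgeR on recovered reads and the fit of 20 libraries, and all 7 main genes were among them. The replicate block also gave 7 calls, with 2085 genes at an unadjusted p under 0.05 (limma), against 1409 in the main fit. Deviations of same-numbered libraries of 1 region at different times correlated at -0.033 to 0.335 (median 0.096, n = 10). Those of differently numbered libraries correlated at -0.215 to 0.244 (median -0.012, n = 40). Whether pairs of the same number share more than the number was not tested. Leaving out 1 pair gave 6 to 9 calls. The count was 3 with the 32 hpf pairs in the fit, 3 in the DR libraries alone, 5 in the OF libraries alone and 3 without both doubted pairs, an alternative chosen after seeing the data, while DESeq2 gave 30 (8 higher, 22 lower). The gene per1b was called under 26 of 26 alternatives, ciarta and cry1bb under 25, nr1d2b and per3 under 24, rdh5 under 22 and tefa under 14. The interaction gave 0 calls under every alternative tried, the replicate block included, except 0 to 1 when 1 pair was left out.

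The direction turned for 10 clock genes that were not called, all with a log2 difference near 0 or a large error. Leaving out 1 pair, the lowest and highest differences were -0.20 and 1.07 for aanat1, -0.081 and 0.44 for dbpa, -0.23 and 0.35 for hlfb, -0.084 and 0.045 for nfil3, -0.046 and 0.15 for nfil3-2, and -0.0103 and 0.37 for rorcb. In the OF libraries alone they were -0.11 for bhlhe41, 0.0476 for nfil3, -0.13 for nfil3-2 and -0.29 for dbpa, and in the DR libraries alone 0.11 for cry1aa and -0.35 for aanat1. With quantile scaling they were -0.021 for clockb, -0.00846 for nfil3-2, -0.14 for hlfb and -0.10 for dbpa. With array weights they were -0.0451 for bhlhe41, 0.0497 for nfil3, -0.11 for hlfb and -0.056 for dbpa. Without both doubted pairs they were 0.054 for cry1ab, -0.22 for bhlhe41, 0.021 for nfil3, -0.031 for hlfb and -0.00702 for dbpa. For dbpa they were also -0.05535 with the log2 of the pair mean, -0.18 with edgeR and -0.19 with DESeq2, which gave -0.0127 for nfil3-2. The cause was not tested.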
